A study of Mus musculus with 4 samples.

Results

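Messenger RNA of 9 inflammatory and regulatory cytokine genes was followed in mouse peritoneal macrophages that were wild-type or lacked Trim24, with and without IL-4. The 9 genes were chosen by name for their known roles, with earlier results of these data known. They were Tnf, Il1a, Il1b, Il1rn, Il6, Il10, Il18, Tgfb1 and Osm, and they are 9 of 16403 genes with a read in at least 1 library. All 9 were listed in at least 1 library, 7 were listed in every library, and 6 had at least 20 reads in each.

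The macrophages came from C57BL/6 mice aged 6 to 8 weeks, 4 days after an intraperitoneal injection of 4% thioglycolate, an irritant that draws macrophages into the peritoneal cavity. They were left to adhere for 4 h, washed, and kept in medium with 0.5% serum. The wild-type untreated group and the wild-type IL-4 group carried intact Trim24, also called TIF1a. The knockout untreated group and the knockout IL-4 group came from mice with floxed Trim24 and a LysM-Cre transgene, which is active in myeloid cells and leaves Trim24 intact in other cell types. IL-4 was given at 20 ng/mL for 6 h, and the untreated groups received none. All 4 groups thus shared elicitation with thioglycolate, itself an inflammatory stimulus, and the labels give no lipopolysaccharide or other stimulus in culture beyond IL-4. Each of the 4 groups was 1 library, and the number of mice behind each is not given in the sources used here. No difference has a replicate check, and each test between a pair of libraries compares those libraries and not the conditions.

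Library totals ran from 11026033 to 11250099 expected reads, so that the floor of 3 reads was 0.267 to 0.272 CPM (reads scaled by the library total). The deleted gene Trim24 had 2.55 and 1.48 FPKM in wild-type libraries and 0.06 and 0.14 FPKM in the knockout libraries, so the low values lay in the libraries labelled knockout. FPKM divides reads by transcript length and by the library total, and is the scale of every level given here. All 8 macrophage markers were listed, with a summed level of 8320 to 14910 FPKM, most of it Lyz2. Lyz2, the lysozyme gene whose locus carries the LysM-Cre insertion, was at 11289.30 and 10811.05 FPKM in the wild-type libraries and at 5193.22 and 4761.07 FPKM in the knockout libraries. Markers of other cell types were low beside the macrophage sum. The summed neutrophil markers and the summed mesothelial and stromal markers nevertheless exceeded the levels of Tnf, Osm and Il18 given below. Their part in those levels was not tested. Sums are over the markers listed, and an unlisted marker is not taken as absent, since S100a9 was not listed while its partner S100a8 was at 5.15 to 8.76 FPKM. The 9 neutrophil markers summed to between 9.49 and 14.1 FPKM, with Ly6g, S100a9, Camp, Ngp and Retnlg not listed. B cell markers (6) summed to between 4.23 and 6.52 FPKM with Ighm not listed, T and NK cell markers (6) to between 1.07 and 1.89 FPKM, and dendritic cell markers (4) to between 2.51 and 2.64 FPKM. Eosinophil markers (4) summed to between 1.06 and 2.04 FPKM with Epx not listed. Mast cell markers (6), with Fcer1a not listed, summed to 4.75 FPKM in the wild-type untreated library and 3.63 in the wild-type IL-4 library. Their sums were 9.12 FPKM in the knockout untreated library and 5.64 in the knockout IL-4 library. Of these markers, Cma1 was called higher in the knockout without IL-4 (log2 ratio 1.91) and Cpa3 with IL-4 (1.21), and 0 were called lower. The part of mast cells in the cytokine levels was not tested. The 7 mesothelial and stromal markers summed to 29.98 FPKM in the wild-type untreated library, 24.86 in the wild-type IL-4 library, 15.14 in the knockout untreated library and 33.44 in the knockout IL-4 library. In bulk RNA a change in the share of cells that express a gene and a change in RNA per cell cannot be told apart.

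The 9 cytokines act at different points of an inflammatory response. TNF and the IL-1 family members IL-1α, IL-1β and IL-18 start and amplify inflammation. IL-1 receptor antagonist, the product of Il1rn, occupies the IL-1 receptor without signalling. IL-6 and oncostatin M, the product of Osm, signal through the shared gp130 chain, while IL-10 and TGF-β1 restrain macrophages and other immune cells. In macrophages most of these genes are induced by microbial products, and several are held in check after transcription: TNF is shed from the membrane, IL-1β and IL-18 are cut by caspase-1, and TGF-β1 is stored in a latent complex. IL-4 acts through STAT6 and drives the alternatively activated, or M2, state, in which inflammatory cytokine genes are known to be restrained.

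The sequences upstream of Tnf and Il1rn, which were called with IL-4, and of Il1a and Il1b, agonist genes that were not, are printed because IL-4 acts through a DNA-binding factor. Il1b had at most 5 reads in any library, too few for a difference to be detectable. Its lack of a call is therefore not taken as a lack of response. RefSeq promoter windows of GRCm38.p6 were matched by symbol for 7 of the 9 genes, Il10 and Osm having no entry, and the 250 bases before each annotated start were searched on both strands. The motifs were the palindromic STAT site with TTC and GAA separated by 4 bases (in 5.85% of all 32851 windows) or by 3 bases (7.02%), the AP-1 site TGANTCA (6.75%), the TATA box TATAAA (12.4%), the PU.1 site GAGGAAGT (2.44%) and the NF-kB consensus (7.25%). Capitals mark the matches. The Tnf window lies at chr17:35202008-35202257 (minus strand), Il1a at chr2:129309973-129310222 (minus strand), Il1b at chr2:129371140-129371389 (minus strand) and an internal start of Il1rn at chr2:24345121-24345370 (plus strand). The Tnf window directly precedes the gene, the Il1a and Il1b windows run into the annotated gene span, and the Il1rn window lies inside it.
Tnf: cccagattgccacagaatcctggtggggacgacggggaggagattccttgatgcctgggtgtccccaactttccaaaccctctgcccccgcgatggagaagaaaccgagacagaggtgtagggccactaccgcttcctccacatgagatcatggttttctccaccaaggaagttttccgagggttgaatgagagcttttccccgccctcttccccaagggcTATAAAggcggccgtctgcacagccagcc
Il1a: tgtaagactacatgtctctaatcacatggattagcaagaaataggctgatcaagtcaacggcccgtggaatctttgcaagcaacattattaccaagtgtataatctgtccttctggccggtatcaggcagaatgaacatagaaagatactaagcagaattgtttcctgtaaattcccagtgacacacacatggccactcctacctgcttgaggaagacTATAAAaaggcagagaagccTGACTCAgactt
Il1b: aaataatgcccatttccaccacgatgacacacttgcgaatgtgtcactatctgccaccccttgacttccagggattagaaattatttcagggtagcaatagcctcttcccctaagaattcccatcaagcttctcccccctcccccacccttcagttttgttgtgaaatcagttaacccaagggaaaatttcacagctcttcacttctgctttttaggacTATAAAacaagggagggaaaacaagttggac
Il1rn: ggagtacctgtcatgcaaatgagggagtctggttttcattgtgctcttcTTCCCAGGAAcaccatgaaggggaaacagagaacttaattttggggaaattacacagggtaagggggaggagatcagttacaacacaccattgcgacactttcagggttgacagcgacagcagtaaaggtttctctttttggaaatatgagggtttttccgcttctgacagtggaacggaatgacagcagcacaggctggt

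A TATA box stood 29 to 24 bases before the start of Tnf, 32 to 27 bases before that of Il1a and 31 to 26 bases before that of Il1b. Il1a also held an AP-1 match, TGACTCA, 12 to 6 bases before its start. The Il1rn window had no TATA box and held a STAT match, TTCCCAGGAA, 201 to 192 bases before this start. Another Il1rn start, whose window overlaps, held the same match. The window of the most upstream start, which directly precedes the gene and is not printed, held an AP-1 match and no STAT match. Of the other windows, that of Il18 had a STAT match (TTCCCCAGAA, 46 to 37 bases before the start), and those of Il6 and Tgfb1 each had an NF-kB consensus match. These matches describe the letters in the windows and say nothing of binding.

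The 9 genes spanned more than 3 orders of magnitude in level, in a similar order in every library. Tgfb1 was by far the most abundant and made up 83.9% of the summed FPKM of the 9 genes in the wild-type untreated library, 84.9% in the wild-type IL-4 library, 80.4% in the knockout untreated library and 84.3% in the knockout IL-4 library. Its mean over the 4 libraries stood at the 98.3rd percentile of all genes. Il1rn stood at the 80.3rd percentile and Il1a at the 74.3rd, while Il18, Tnf and Osm lay between the 57.9th and the 44.1st. Il1b, Il6 and Il10 lay between the 22.3rd and the 16.2nd percentile and rested on 5 reads or fewer in every library.

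**Figure D1:**
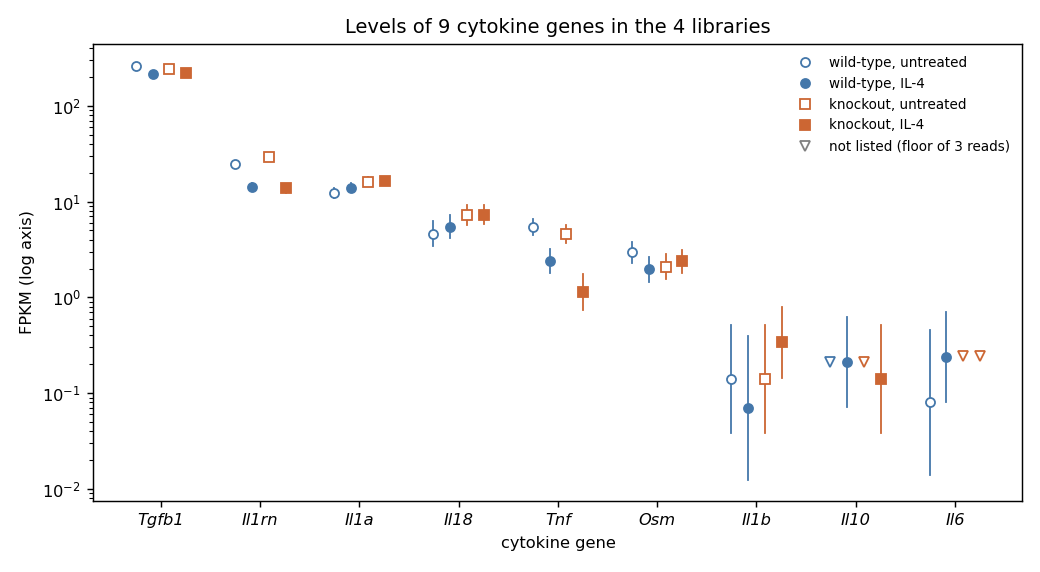
Level of each cytokine gene in each of the 4 libraries, in FPKM on a log axis; bars are 95% Wilson intervals of counting error and open triangles mark libraries in which a gene was not listed, drawn at the floor of 3 reads. Tgfb1 lies between 215.91 and 261.49 FPKM in all libraries, Tnf and Il1rn are lower in both IL-4 libraries, and Il1b, Il6 and Il10 do not rise above 0.34 FPKM.

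The proinflammatory cytokine TNF is made as a membrane protein and is a first product of activated macrophages. Its gene Tnf (gene ID 21926, chr17:35199367-35202007) was at 5.45 FPKM in the wild-type untreated library (99 reads, 95% Wilson interval 4.48 to 6.63) and at 2.39 FPKM in the wild-type IL-4 library (44 reads, 1.78 to 3.21). It was at 4.57 FPKM in the knockout untreated library (83 reads, 3.69 to 5.66) and at 1.14 FPKM in the knockout IL-4 library (20 reads, 0.738 to 1.76). Both IL-4 libraries were below both untreated libraries, and only the intervals of the untreated libraries overlapped each other. With IL-4, Tnf fell 2.23-fold in the wild-type (log2 ratio -1.16, two-sided Fisher's exact test on reads with Benjamini-Hochberg adjustment, adjusted p = 1.39e-05). In the knockout it fell 3.77-fold (log2 ratio -1.91, Fisher's exact test, adjusted p = 3.39e-09). Log2 ratios are of FPKM plus 0.1, and a call required more than a 1.5-fold change together with an adjusted p below 0.05. Values listed for 4 libraries are in the order wild-type without and with IL-4, then knockout without and with IL-4.

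Between genotypes, Tnf differed little without IL-4, the knockout having a log2 ratio of -0.25 to the wild-type (95% counting interval of the read ratio -0.69 to 0.18, Fisher's exact test, adjusted p = 0.707). With IL-4 the ratio was -1.01 (-1.95 to -0.32, Fisher's exact test, adjusted p = 0.0228), which was called. That call was lost once the trend of ratios with transcript length was removed (-0.91, adjusted p = 0.0678, exact binomial test). In this pair log2 ratios rose with transcript length across genes (Spearman's rho 0.51), and the part of that trend in the Tnf value was tested only by its removal. The IL-4 response of Tnf in the knockout minus that in the wild-type was -0.84 on the log2 scale, with a 95% counting interval from -1.70 to 0.03 that included 0. With TMM scaling the interval ran from -1.74 to -0.0073 and excluded 0.

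The IL-1 genes lie on chromosome 2 and did not move together. Il1a (gene ID 16175, chr2:129299609-129310186) encodes IL-1α, which is active without cleavage and acts as an alarm signal of damaged cells. It was at 12.36 FPKM in the wild-type untreated library (269 reads), 13.91 in the wild-type IL-4 library (309 reads), 16.09 in the knockout untreated library (350 reads) and 16.37 in the knockout IL-4 library (356 reads). Both knockout libraries were above both wild-type libraries, and IL-4 changed the level little in either genotype. The log2 ratios with IL-4 were 0.17 in the wild-type (Fisher's exact test, adjusted p = 0.319) and 0.02 in the knockout (adjusted p = 0.977, Fisher's exact test). Relative to the wild-type, the knockout had a log2 ratio of 0.38 without IL-4 (Fisher's exact test, adjusted p = 0.0219, under the fold threshold) and 0.23 with IL-4 (Fisher's exact test, adjusted p = 0.147).

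Il1rn (gene ID 16181, chr2:24336860-24351491), the gene of the IL-1 receptor antagonist, was at 24.76 FPKM in the wild-type untreated library (675 reads, 95% Wilson interval 23.0 to 26.7) and at 14.08 in the wild-type IL-4 library (392 reads, 12.8 to 15.6). It was at 29.22 FPKM in the knockout untreated library (797 reads, 27.3 to 31.3) and at 13.73 in the knockout IL-4 library (376 reads, 12.4 to 15.2). The IL-4 libraries nearly coincided, and both untreated libraries lay clear of them. Il1rn fell 1.75-fold with IL-4 in the wild-type (log2 ratio -0.81, Fisher's exact test, adjusted p = 3.07e-18) and 2.12-fold in the knockout (log2 ratio -1.08, Fisher's exact test, adjusted p = 8.74e-34). The knockout was higher than the wild-type without IL-4 by a log2 ratio of 0.24 (Fisher's exact test, adjusted p = 0.0269), which did not reach the fold threshold. With IL-4 the ratio was -0.04 (95% counting interval of the read ratio -0.24 to 0.18). The difference of the IL-4 responses was -0.27 (95% counting interval -0.52 to -0.02), beyond 0 but under the fold threshold.

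With Il1a nearly level and Il1rn lower, the ratio of antagonist to agonist mRNA shifted with IL-4. Il1rn exceeded Il1a 2.0-fold in FPKM in the wild-type untreated library (95% counting interval 1.74 to 2.32) and 1.82-fold in the knockout untreated library (1.60 to 2.07). The ratio was 1.01 in the wild-type IL-4 library (0.870 to 1.18) and 0.839 in the knockout IL-4 library (0.724 to 0.972). Both IL-4 libraries lay below both untreated libraries with intervals that did not overlap those of the untreated libraries. The ratio of Il1a to Tnf went the other way, from 2.27 (1.79 to 2.89) to 5.82 (4.23 to 8.17) in the wild-type and from 3.52 (2.76 to 4.53) to 14.4 (9.16 to 23.8) in the knockout.

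**Figure D2:**
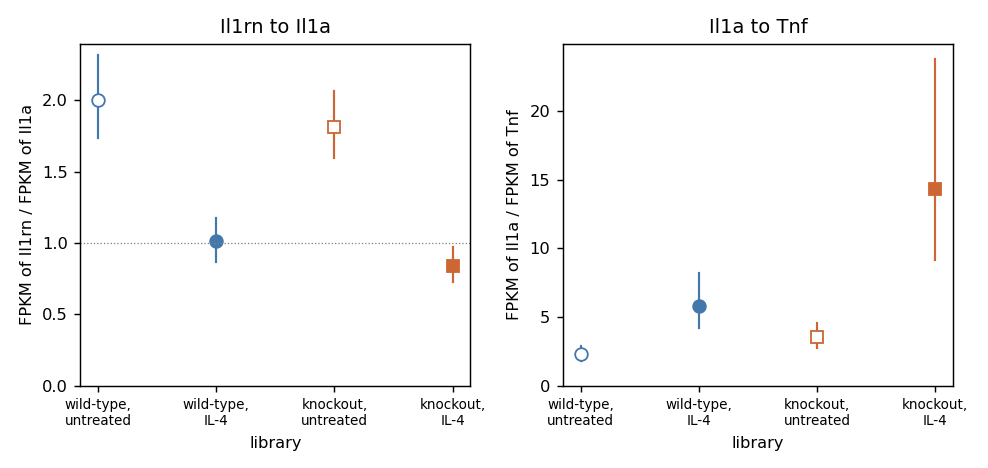
Ratio of Il1rn to Il1a (left) and of Il1a to Tnf (right) in FPKM within each of the 4 libraries, with 95% counting intervals; the dotted line marks equal FPKM. Il1rn to Il1a stands at 2.0 and 1.82 without IL-4 and at 1.01 and 0.839 with IL-4, and Il1a to Tnf is highest, 14.4, in the knockout IL-4 library.

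Il1b (gene ID 16176, chr2:129364569-129371164), whose product IL-1β is made as an inactive precursor, was close to the floor. It had 2 reads (0.14 FPKM) in each untreated library, 1 read (0.07 FPKM) in the wild-type IL-4 library and 5 reads (0.34 FPKM) in the knockout IL-4 library. The intervals overlapped widely, and no difference in Il1b was detectable at this depth.

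Il18 (gene ID 16173, chr9:50554700-50581841) encodes IL-18, which induces interferon-γ in T and NK cells. It was at 4.61 FPKM in the wild-type untreated library (43 reads), 5.47 in the wild-type IL-4 library (52 reads), 7.30 in the knockout untreated library (68 reads) and 7.31 in the knockout IL-4 library (68 reads). Both knockout libraries were above both wild-type libraries, as with Il1a. Relative to the wild-type, the knockout had a log2 ratio of 0.65 without IL-4, past the fold threshold but with an adjusted p = 0.163 by Fisher's exact test, and 0.41 with IL-4 (Fisher's exact test, adjusted p = 0.329). IL-4 gave log2 ratios of 0.24 in the wild-type (95% counting interval of the read ratio -0.36 to 0.86) and 0.002 in the knockout (-0.51 to 0.51).

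The gp130 cytokines were low. Osm (gene ID 18413, chr11:4236785-4241026) was at 2.95 FPKM in the wild-type untreated library (62 reads, 95% Wilson interval 2.30 to 3.78), 1.96 in the wild-type IL-4 library (42 reads, 1.45 to 2.65), 2.10 in the knockout untreated library (44 reads, 1.56 to 2.82) and 2.38 in the knockout IL-4 library (50 reads, 1.81 to 3.14). All 4 intervals overlapped, and no pair was called. The log2 ratio with IL-4 was -0.57 in the wild-type (Fisher's exact test, adjusted p = 0.127) and 0.17 in the knockout (Fisher's exact test, adjusted p = 0.769). Il6 (gene ID 16193, chr5:30013114-30019975), the gene of the acute-phase cytokine IL-6, had 1 read in the wild-type untreated library and 3 in the wild-type IL-4 library. It was not listed in either knockout library, where the floor of 3 reads stands at 0.2425 FPKM and the 95% Wilson interval of 0 reads reaches 0.311 FPKM.

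The regulatory cytokines were at opposite ends of the range. Tgfb1 (gene ID 21803, chr7:25687002-25705077) was at 261.49 FPKM in the wild-type untreated library (6331 reads), 215.91 in the wild-type IL-4 library (5332 reads), 243.87 in the knockout untreated library (5899 reads) and 222.16 in the knockout IL-4 library (5371 reads). Both IL-4 libraries were below both untreated libraries, by small amounts. The log2 ratio with IL-4 was -0.28 in the wild-type (95% counting interval of the read ratio -0.33 to -0.22, Fisher's exact test, adjusted p = 1.67e-23) and -0.13 in the knockout (-0.19 to -0.08, Fisher's exact test, adjusted p = 6.66e-06). Both differences exceeded counting error and stayed under the fold threshold. The knockout response minus the wild-type response was 0.14 (95% counting interval 0.07 to 0.22), beyond 0 but under the fold threshold. Relative to the wild-type, the knockout had log2 ratios of -0.10 without IL-4 and 0.04 with IL-4, both under the fold threshold. Il10 (gene ID 16153, chr1:131019845-131024970), the gene of the anti-inflammatory cytokine IL-10, was not listed in either untreated library and had 3 reads in the wild-type IL-4 library and 2 in the knockout IL-4 library. All of these are at or under the floor, so no fold is given.

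Counted together, 2 of the 9 genes tested were called lower with IL-4 in the wild-type, where 7.89% of all genes tested were called lower, and 0 were called higher, where 4.91% of all genes were. In the knockout 2 of 8 tested were called lower, beside 4.04% of all genes, and 0 higher, beside 5.29%. In the wild-type pair 1230 genes in all were called lower and 766 higher, and ratios fell with transcript length across genes (Spearman's rho -0.36). With that trend removed 817 were lower and 809 higher, and Tnf and Il1rn were still called. The called genes were Tnf and Il1rn in both genotypes, and these pairs share no library. Between genotypes without IL-4, 0 of 8 were called, beside 0.839% of all genes called higher in the knockout and 0.742% called lower. With IL-4, 1 of 9 (Tnf) was called lower, beside 0.764% of all genes, and 0 higher, beside 3.04%. For the difference of the IL-4 responses, 0 of 9 had a counting interval beyond 0 and passed the fold threshold, beside 3.18% of 16403 genes with a higher response in the knockout and 1.05% with a lower response. For the 6 members that averaged 1 FPKM or more, the median of the log2 ratios was -0.42 for IL-4 in wild-type cells and -0.07 for IL-4 in knockout cells, against -0.008 and 0.0079 over all genes of that minimum.

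**Figure D3:**
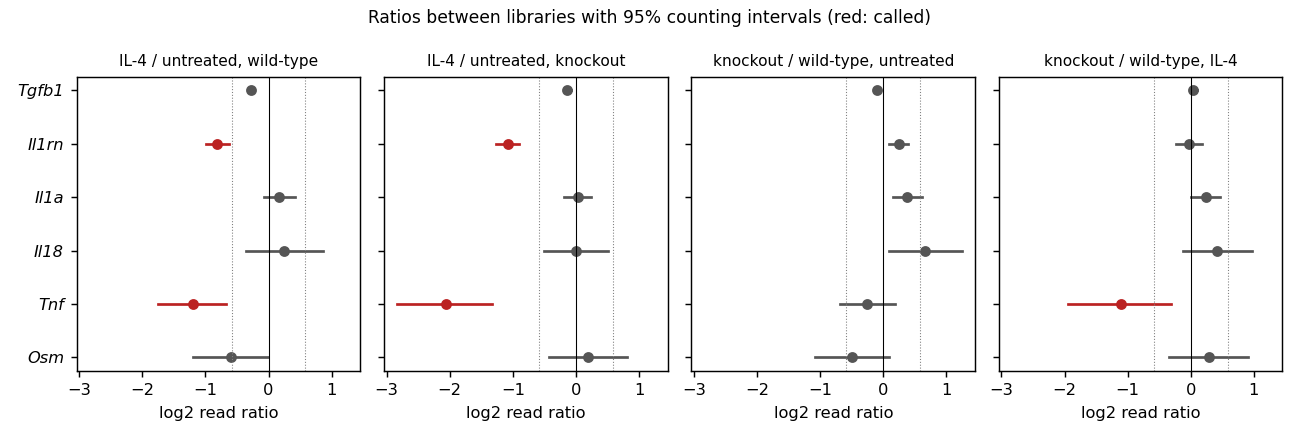
Log2 read ratio (horizontal axis) of the 6 cytokine genes with at least 20 reads in every library, for each of the 4 pairs of libraries; bars are 95% counting intervals, dotted lines mark the 1.5-fold threshold, and red marks called genes. Tnf and Il1rn are red in both IL-4 comparisons and Tnf alone in the comparison of genotypes with IL-4.

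An additive model of genotype and treatment used all 4 libraries at once, with the difference of the responses as its only residual (1 degree of freedom). Of the 9 genes, 6 passed its filter on low counts. With 11791 genes in the Benjamini-Hochberg adjustment of edgeR's quasi-likelihood F-test, IL-4 lowered Tnf by a log2 effect of -1.53 (adjusted p = 0.00041) and Il1rn by -0.94 (adjusted p = 1.74e-05, edgeR). The effect on Tgfb1 was -0.19 (edgeR, adjusted p = 0.118), and Il1a, Il18 and Osm had effects between -0.20 and 0.12. With IL-4, 13.3% of the genes fitted were lower by this test and 12.0% were higher. For genotype edgeR called 0 of the 6 genes, beside 1.29% of the genes fitted that were higher in the knockout and 0.373% that were lower. Unadjusted values below 0.05 were found for 2, Il1a (log2 effect 0.31) and Il18 (0.53), in the edgeR fit, beside 1680 of 11791 genes, for 0 in DESeq2, and for 3 each with limma, upper-quartile scaling and the length trend as an offset. The genotype effect on Tnf was -0.52 (edgeR, adjusted p = 0.361).

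Genes with profiles most like those of the members were sought among 7464 genes that averaged 5 FPKM or more, by Euclidean distance of centred log2 values over the 4 libraries. Among the nearest to Il1rn were Coro1a (distance 0.106), which encodes the actin-binding protein coronin, and the clock-output gene Dbp (0.111). Coro1a was at 67.17, 35.77, 73.99 and 33.75 FPKM in the libraries in the order used above, and thus was low in both IL-4 libraries as Il1rn was. Nearest to Il18 were Hebp1 (0.0859), the scavenger receptor gene Marco (0.0907) and Dhx40 (0.145), and Marco was at 19.04, 23.19, 29.76 and 32.29 FPKM in the same order. Nearest to Il1a were Anks3 (0.0183), H2-T10 (0.044) and Gm14296 (0.045), and nearest to Tgfb1 were Ocel1 (0.00734), Golm1 (0.0197) and Fam219b (0.0209). With 4 libraries such distances are descriptive.

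Receptors of the 9 cytokines include chains shared between several of them. Of 18 receptor genes, IL-4 gave 2 higher and 4 lower calls in the wild-type, and 2 higher and 2 lower calls in the knockout. Removal of the length trend turned the balance in the wild-type to 4 higher and 2 lower calls, with Il1r1 and Il1rap gained and Tgfbr2 and Osmr lost. The shares of all genes called in these pairs, given above, are the background of this list and of those that follow. Il6st, which encodes the gp130 chain shared by IL-6 and oncostatin M, was at 18.62 and 21.76 FPKM in the wild-type and knockout untreated libraries and at 55.32 and 87.93 FPKM in the matching IL-4 libraries. It was called higher in both genotypes, with log2 ratios of 1.57 (wild-type) and 2.01 (knockout). Il10ra, the ligand-binding chain of the IL-10 receptor, fell from 17.02 to 7.31 FPKM in the wild-type (log2 ratio -1.21) and from 20.29 to 8.89 FPKM in the knockout (-1.18). Tgfbr1, a kinase chain of the TGF-β receptor, fell from 20.89 to 10.68 FPKM (-0.96) and from 20.58 to 12.23 FPKM (-0.75). Il10rb, the other and more abundant chain of the IL-10 receptor, is named after its values were seen and went the opposite way to Il10ra. In wild-type cells it increased from 209.58 to 355.23 FPKM (log2 ratio 0.76, called) and was at 228.59 and 332.81 FPKM in the knockout without and with IL-4 (0.54, Fisher's exact test, adjusted p = 1.86e-87, under the fold threshold).

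A few receptor genes outside that rule, named after their values were seen, differed between genotypes. Il6st was higher in the knockout with IL-4 (log2 ratio 0.67, Fisher's exact test, adjusted p = 6.04e-99), although its ratio of 0.45 after removal of the length trend fell under the fold threshold. Also higher was Il6ra, the IL-6-binding chain, at 16.28 against 9.98 FPKM (log2 ratio 0.70, Fisher's exact test, adjusted p = 1.28e-12). In this pair the mesothelial and stromal markers Col1a1 (log2 ratio 0.85) and Msln (1.85) were called higher in the knockout and Wt1 (-1.35) lower, and their part in the Il6st and Il6ra values was not tested. Without IL-4 the signalling IL-1 receptor gene Il1r1 was lower in the knockout, at 0.93 against 1.80 FPKM (log2 ratio -0.88, Fisher's exact test, adjusted p = 0.00432). Of the 7 mesothelial and stromal markers 4 were called lower in that pair and none was at 0. Among these 4 were Col1a1, at 4.81 FPKM in the knockout against 10.89 in the wild-type, and Col1a2, at 5.53 against 10.47 FPKM. The part of these markers in the Il1r1 value was not tested. No receptor gene was called in the same direction in both genotype pairs. The additive fit, without removal of the length trend, did call Il6st higher in the knockout (log2 effect 0.46).

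Among 23 genes that process, release or store these cytokines, IL-4 gave 5 higher calls and 1 lower call in the wild-type, and 5 higher and 2 lower calls in the knockout. Nlrp3, the inflammasome sensor upstream of caspase-1, fell from 1.18 to 0.18 FPKM in the wild-type (log2 ratio -2.19) and from 1.25 to 0.22 FPKM in the knockout (-2.08). In the same list, named after their values were seen, the sensor genes Aim2 (log2 ratios -0.30 and -0.40), Nlrc4 (-0.34 and -0.29) and Nlrp1b (-0.59 and -0.23) and the caspase-1 gene Casp1 (-0.02 and -0.08) were not called in either genotype. Pycard, the adaptor that links sensors to caspase-1, rose from 27.73 to 46.90 FPKM (log2 ratio 0.76, wild-type) and from 26.32 to 45.82 FPKM (0.80, knockout), and Mefv, which encodes the pyrin sensor, rose by log2 ratios of 1.02 and 1.07. Rhbdf2, whose product iRhom2 brings the TNF-shedding protease ADAM17 to the cell surface, rose from 13.82 to 25.46 and from 13.28 to 29.94 FPKM, with log2 ratios of 0.88 and 1.17. Lrrc32, which encodes GARP, a docking protein for latent TGF-β1, increased from 1.95 to 4.57 FPKM (1.19, wild-type) and from 1.65 to 8.44 FPKM (2.29, knockout). Of all 23, Thbs1, a thrombospondin able to activate latent TGF-β1, was the only gene called between genotypes without IL-4, at 5.55 FPKM in the knockout against 2.23 in the wild-type (log2 ratio 1.28, Fisher's exact test, adjusted p = 3.03e-20), and is named after its value was seen. With IL-4, 2 of the 23 were called higher in the knockout, beside 3.04% of all genes, and are named after their values were seen. Lrrc32 (log2 ratio 0.87) was still called once the length trend was removed (0.79), and Ltbp3 (0.72) was not (0.52). Thbs1 was under the fold threshold with IL-4 (log2 ratio 0.55, and 0.30 once the length trend was removed).

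Of 13 genes for regulators of cytokine mRNA decay, IL-4 gave 2 higher calls and 1 lower call in each genotype. Zfp36l2, a member of the tristetraprolin family that destabilizes AU-rich mRNAs, fell from 93.12 to 43.44 FPKM in the wild-type (log2 ratio -1.10) and from 95.70 to 54.07 FPKM in the knockout (-0.82). Zfp36, the gene of tristetraprolin itself, is named after its values were seen and went the opposite way. In the wild-type it rose from 29.86 to 52.14 FPKM (log2 ratio 0.80, called). It was at 35.25 and 49.19 FPKM in the knockout without and with IL-4 (0.48, under the fold threshold). Their relative Zfp36l1, also named after its values were seen, was called in neither genotype (0.27 and 0.37). Arid5a, whose product stabilizes Il6 mRNA, rose by log2 ratios of 0.70 and 0.84. Of 20 signal transducers downstream of these receptors, 1 was called higher and 3 lower in the wild-type, and 1 higher and 2 lower in the knockout. Jak2, a kinase that associates with cytokine receptors including gp130, increased from 10.13 to 26.43 FPKM (log2 ratio 1.38, wild-type) and from 10.30 to 29.00 FPKM (1.48, knockout). Smad3, a transducer of TGF-β signals, fell from 3.65 to 1.40 and from 3.72 to 1.46 FPKM (log2 ratios -1.32 and -1.29), and Irak2, a kinase of the IL-1 receptor and Toll-like receptor pathway, fell by log2 ratios of -0.77 and -0.60.

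Among 35 other cytokine genes, 23 were listed and 11 had a mean of at least 1 FPKM, and in each genotype 1 was called higher and 1 lower with IL-4. Csf1, which encodes the macrophage growth factor M-CSF, increased from 3.35 to 7.63 FPKM in wild-type cells (log2 ratio 1.16) and from 1.84 to 7.84 FPKM in the knockout (2.03). Il15, the gene of a T and NK cell growth factor, fell from 6.03 to 3.07 FPKM (-0.95) and from 6.55 to 3.71 FPKM (-0.80). In the untreated libraries Csf1 was lower in the knockout (log2 ratio -0.83, Fisher's exact test, adjusted p = 0.000966), in the pair in which the stromal markers were lower too, and their part in it was not tested. No gene of the decay, transducer, processing or other cytokine lists was called in the same direction in both genotype pairs. The additive fit, without removal of the length trend, did call Thbs1 (log2 effect 0.96) and Ltbp3 (0.52) higher in the knockout.

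**Figure D4:**
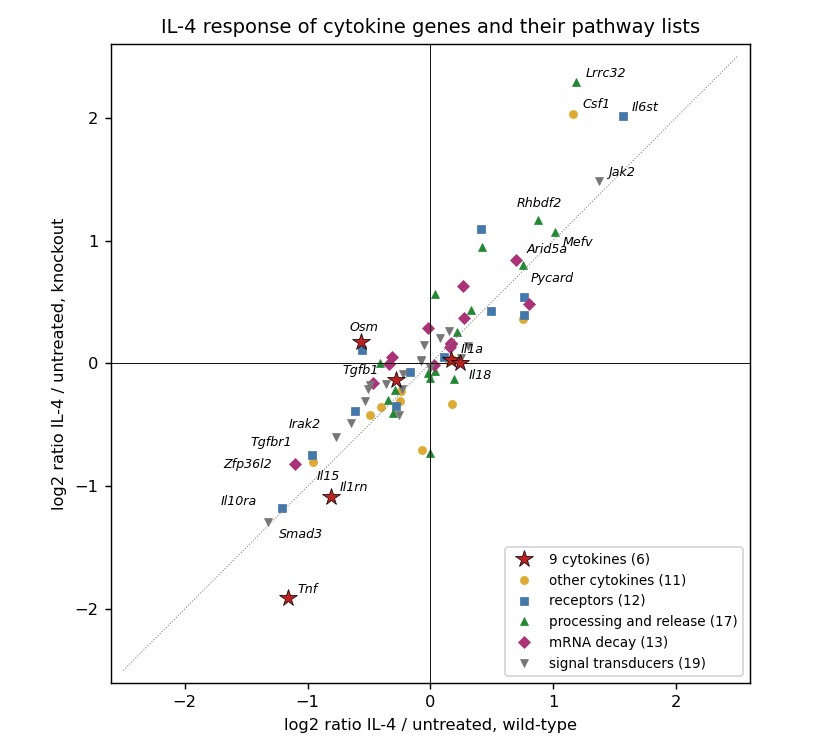
Log2 ratio of IL-4 to untreated in the wild-type (horizontal axis) and the knockout (vertical axis) for cytokine and pathway genes that averaged 1 FPKM or more; stars mark 6 of the 9 cytokines, other symbols the pathway lists, and the dotted line equal ratios. Tnf and Il1rn lie low on both axes, while Il6st, Lrrc32, Csf1 and Jak2 lie high on both.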

How the data were processed

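Each deposited table held 1 library of total RNA. The authors mapped reads with Bowtie to GRCm38 (mm10) and quantified genes with RSEM, whose versions are not given in the sources used here. The deposited expected counts need not be whole (22.2% to 22.8% were not) and were rounded for count tests. The authors' FPKM values divide them by transcript length and library total. Genes not listed were set to 0. Of 16403 genes, 16365 matched a symbol in a RefSeq table of GRCm38.p6.

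Reads of each gene were compared between paired libraries with Fisher's exact test (two-sided), with Benjamini-Hochberg adjustment over genes with a read in the pair. Calls needed an adjusted p below 0.05 and, on the log2(FPKM + 0.1) scale, more than a 1.5-fold change. Counting intervals were exact binomial intervals, intervals of single levels were Wilson intervals (95%), and the floor was 3 reads. These intervals cover counting error alone, because each group held 1 library. Reads carried no molecular identifiers and PCR copies are not independent, so the intervals may be too narrow even for that error. Differences of IL-4 responses used counts plus 0.5 and had no p. The additive model was fitted with edgeR 4.0.16 (TMM, filterByExpr, quasi-likelihood). DESeq2 1.42.0, limma 3.58.1, other pseudocounts, scalings and filters, assumed coefficients of variation and removal of a lowess trend over transcript length were alternatives. The pair test and the additive fit were tested on simulated data.

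The named genes were the 9 cytokines, Trim24, markers, list genes called in the same direction in both IL-4 or both genotype pairs (at most 6 per list, by mean log2 ratio), and the 3 genes nearest in profile to each cytokine with a mean of at least 5 FPKM. Genes named outside this rule are marked as such. A gene near in profile is not reported here. The cytokines and lists were chosen with earlier results of these data known.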

Additional observations from a re-analysis of the deposited data

Results flagged for a closer look

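The IL-4 response went in opposite directions in the genotypes for Osm and Il1b. For Osm the knockout response minus the wild-type response was 0.77 on the log2 scale, with a 95% counting interval from -0.04 to 1.58 that included 0. For Il1b it was 1.90, with an interval from -1.73 to 5.53, on 1 to 5 reads per library. With 1 library per group neither difference was tested against variation between samples.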

How the results depend on the processing

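No paired analysis was possible because each group held 1 library and the labels give no replicate numbers shared between groups. Of the values for single cytokines under the alternatives, 402 stayed on the same side of the call threshold. A further 12 kept the direction but lost the call, 3 gained a call, and none of the called values reversed. In 6 of those 402 the sign differed, with no call on either side. At a fold above 2, calls among the 9 cytokines with IL-4 in the wild-type went from 2 to 1, Il1rn being lost, and calls over all genes became 861 (IL-4 in the wild-type, from 1996), 710 (IL-4 in the knockout, from 1468), 127 (genotype without IL-4, from 247) and 171 (genotype with IL-4, from 593). A pseudocount of 1 gave 155 and 321 calls for genotype without and with IL-4. With biological coefficients of variation assumed at 0.1, 0.2 and 0.4 in edgeR's exact test, calls were 1321, 258 and 45 for IL-4 in the wild-type, 970, 272 and 33 for IL-4 in the knockout, 68, 15 and 7 for genotype without IL-4, and 120, 21 and 11 for genotype with IL-4. Among the 9 cytokines, 0 calls were left in the wild-type at 0.2 and 0.4, 1 (Tnf) in the knockout at 0.2 and 0 at 0.4, and the genotype call on Tnf with IL-4 was lost at all 3 values. Removal of the length trend left 0 cytokine calls and 316 calls over all genes for genotype with IL-4. TMM scaling put the difference of responses of Tnf beyond 0, a count of 1 in place of 0. In the additive fit, IL-4 calls went from 2987 to 1262 with DESeq2 and 1675 with all genes tested, and genotype calls from 196 to 68 with DESeq2, 393 with limma, 494 with upper-quartile scaling, 24 with all genes tested and 624 with the length trend as an offset. That offset added 1 cytokine for genotype, Il1a (log2 effect 0.35), and the IL-4 effect on Tgfb1 (-0.24). The balance of higher to lower calls over all genes moved too. With the length trend removed it went from 474 and 119 to 218 and 98 for genotype with IL-4, and from 522 and 173 to 321 and 178 for the difference of responses. For genotype in the additive fit it went from 152 and 44 to 60 and 8 (DESeq2), 237 and 156 (limma), 331 and 163 (upper-quartile) and 399 and 225 (length offset). At an assumed coefficient of variation of 0.2 it was 178 and 80 for IL-4 in the wild-type, from 766 and 1230, and 209 and 63 in the knockout, from 832 and 636. The causes of these shifts were not tested, apart from settings that are stricter by construction. With 1 library per group, variation between mice and cultures is not measured, and Il1b, Il6 and Il10 had too few reads at this depth for a difference to be detectable.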

Other observations

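Among the macrophage markers, the receptor of the growth factor M-CSF moved with its ligand. Csf1r was at 144.57 FPKM in the wild-type untreated library, 270.38 in the wild-type IL-4 library, 135.40 in the knockout untreated library and 284.85 in the knockout IL-4 library. It was called higher with IL-4 in both genotypes, as was Csf1. Cd14, the co-receptor for lipopolysaccharide, was at 65.96, 31.35, 60.34 and 32.79 FPKM in the same order and was called lower with IL-4 in both genotypes.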
